A study of Homo sapiens with 24 samples.

Results

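The genes described here are the human Y RNA genes RNY1, RNY3, RNY4 and RNY5, the vault RNA genes VTRNA1-1, VTRNA1-2, VTRNA1-3 and VTRNA2-1, and the genes of a protein partner of each family, RO60 and MVP. They were picked by symbol: rows of the count table were kept where the Ensembl gene ID maps to 1 of these 10 symbols. Of the 10 genes, 9 had a row among the 61853 rows of the table, and 8 had enough counts to be tested. No row mapped to RNY5, so it was not analysed here. VTRNA2-1 had a row with 0 counts in all 24 libraries, and 3 counts, the limit that a count of 0 allows, would be 0.0909 to 0.142 CPM (the share of a library's total, scaled so that the total is 10 to the power 6) in a library.

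The cells were 293T, an established line of human embryonic kidney origin, in which DIS3 had been knocked down with the short hairpin RNA sh2. All libraries carry that knockdown, and the cells differ in the rescue: DIS3 WT or DIS3 D146N. DIS3 is a nuclease of the RNA exosome, and D146N changes an aspartate of the endonuclease domain of DIS3. Cytoplasmic RNA of fractions 3, 4, 7 and 8 of a sucrose density gradient was depleted of ribosomal RNA and sequenced, with 3 replicates in each of the 8 groups (WT fractions 3, 4, 7 and 8 and D146N fractions 3, 4, 7 and 8). The design text calls the replicates biological without naming separate cultures or clones, so p-values measure the spread between these samples. The labels name no other treatment and no promoter for the rescue constructs.

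Y RNAs are short RNA polymerase III transcripts that fold into a stem and loop. RO60 (the Ro60 antigen) is a ring-shaped protein that binds the stem, and it also binds misfolded RNAs. The La protein, made from SSB, binds the uridine tail of new polymerase III transcripts. Y RNAs are known for parts in RNA quality control and in the start of DNA replication. Vault RNAs are transcribed by the same polymerase. Some of them sit inside vaults, large hollow cytoplasmic particles whose shell is built from MVP, with TEP1 and PARP4 as smaller components. VTRNA1-1 also binds the autophagy receptor made from SQSTM1, and VTRNA2-1 binds the kinase made from EIF2AK2.

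The Y RNA genes form 1 cluster on chromosome 7 (hg38, positions from RefSeq GRCh38.p14). RNY5 lies at chr7:148941488-148941571, RNY4 at chr7:148963315-148963410, RNY3 at chr7:148983755-148983856 and RNY1 at chr7:148987136-148987248, so that the genes span 45.8 kb. The VTRNA1 genes form a 15.0 kb cluster on chromosome 5, with VTRNA1-1 at chr5:140711276-140711373, VTRNA1-2 at chr5:140718926-140719013 and VTRNA1-3 at chr5:140726159-140726246. All 3 fall within the span of LOC105378198, an annotated long noncoding RNA gene. VTRNA2-1 lies apart on the same chromosome, at chr5:136080491-136080598. RO60 lies at chr1:193059612-193091777 and overlaps UCHL5, and MVP lies at chr16:29820394-29848039 and overlaps PAGR1. The strand setting of the counting is not given in the sources used here, so reads of overlapping genes cannot be told apart. The row IDs are ENSG00000201098.1 (RNY1), ENSG00000202354.1 (RNY3), ENSG00000252316.1 (RNY4), ENSG00000199990.1 (VTRNA1-1), ENSG00000202111.1 (VTRNA1-2), ENSG00000202515.1 (VTRNA1-3), ENSG00000270123.4 (VTRNA2-1), ENSG00000116747.13 (RO60) and ENSG00000013364.19 (MVP).

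The start of VTRNA1-1 is shown because its control elements lie inside the gene, where the polymerase III factors bind. RefSeq lists LOC105378198 as starting at the same base, and its promoter window (plus strand, chr5:140711026-140711325, GRCh38.p14) therefore runs from 250 bases before VTRNA1-1 to its first 50 bases. Capitals mark those 50 bases, the first bases of the RNA itself.
LOC105378198 window with the start of VTRNA1-1: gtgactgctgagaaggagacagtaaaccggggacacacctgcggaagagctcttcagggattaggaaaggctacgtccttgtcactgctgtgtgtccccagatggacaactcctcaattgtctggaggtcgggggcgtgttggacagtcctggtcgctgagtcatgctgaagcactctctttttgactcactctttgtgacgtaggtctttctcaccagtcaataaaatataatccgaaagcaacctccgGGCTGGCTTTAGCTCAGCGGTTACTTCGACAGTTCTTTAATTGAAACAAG
The pattern TAGCNNA, a form of the first letters of the box A element that the factor TFIIIC reads in genes of this promoter type, was searched on both strands. It matched once, on the gene's strand, as TAGCTCA from base 10 after the start. The pattern was present on the forward strand of 12.2% of the 35116 RefSeq promoter windows of the same length and on either strand of 21.8%, so it is not rare. A match of letters describes the window and is not a measured binding site.

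Library totals ran from 21150619 to 32989418 counts. In the targeted gene DIS3, levels averaged 98.4 CPM in WT fraction 3 and 4.93 CPM in WT fraction 7, but 8.59 CPM in D146N fraction 3 and 101 CPM in D146N fraction 7. A row counts endogenous and rescue transcripts together, so this level does not test the rescue. The fraction contrasts of the genotypes thus ran in opposite directions, and the labels do not give the end from which fractions were numbered. WT fraction 8 replicate 3 stood apart: its TMM factor, the scaling that sets the typical gene equal between libraries, was 0.531, against 0.376 and 0.370 in replicates 1 and 2. Calls that change without it, and values that turn or move by over 1.5 times, are given both ways. Among 13 hepatocyte markers the summed level ran from 31.8 to 693 CPM over the 8 groups, and among 9 markers of 293T cells from 27.8 to 346 CPM, both lists being high in WT fractions 3 and 4 and in D146N fractions 7 and 8. ALB reached 142 CPM and APOB 404 CPM in single libraries. Leukocyte and erythroid lists summed to at most 2.29 CPM, with CD3E and ALAS2 at 0 in every library, and 5 fibroblast markers to between 0.555 and 14.9 CPM. The part of these markers in the results was not tested.

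Levels are given as CPM of the library total. The 10 rows of largest mean share took 46.8% of the counts in WT fraction 3 and 72.0% in WT fraction 7, against 76.6% in D146N fraction 3 and 41.9% in D146N fraction 7. A fold change with TMM factors is relative to the typical gene, and one on library totals is relative to all counts. With TMM factors the median of all genes was -0.17 (log2, fractions 7 and 8 over 3 and 4) in WT and 0.09 in D146N. On library totals the medians were -2.82 and 2.99. The directions of some genes depend on this choice, and ratios between genes of 1 library do not. The labels name no added RNA standard that would fix the scale.

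Of the Y RNAs, RNY1 was the most abundant. In WT it stood at 18.9, 14.3 and 11.7 CPM in the 3 libraries of fraction 3 and at 13.9, 13.7 and 16.9 CPM in fraction 4. The libraries of WT fractions 7 and 8 held 0.161, 0.218 and 0.165 CPM and 0.191, 0.122 and 0.0909 CPM, which are 3 to 7 counts a library. The WT fractions 3 and 4 were thus high and fractions 7 and 8 low, with no overlap. In D146N the order was turned: RNY1 stood at 1.28, 0.731 and 1.06 CPM in fraction 3 and 1.01, 1.89 and 0.757 CPM in fraction 4. It reached 14.8, 14.5 and 16.3 CPM in D146N fraction 7 and 13.4, 15.8 and 12.6 CPM in fraction 8. The mean CPM was 94.4 times higher in WT fractions 3 and 4 than in 7 and 8, and 13 times higher in D146N fractions 7 and 8 than in 3 and 4. In bulk RNA, fewer cells or particles that hold an RNA and less of it in each cannot be told apart.

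RNY3 had the same high and low sides, with lower levels on the high side of D146N. It stood at 7.29, 7.09 and 5.03 CPM in WT fraction 3 and at 6.51, 7.00 and 8.31 CPM in WT fraction 4. In the 6 libraries of WT fractions 7 and 8 it stood at 0.0456 to 0.132 CPM, which are 1.5 to 4 counts a library. Under the D146N rescue it stood at 0.365 to 0.860 CPM in the 6 libraries of fractions 3 and 4, at 3.47, 3.77 and 3.25 CPM in fraction 7 and at 2.66, 2.54 and 2.73 CPM in fraction 8. The high side of D146N, at a mean of 3.07 ± 0.50 CPM (SD, n = 6 libraries, 3 of each fraction), lay below the high side of WT, at 6.87 ± 1.08 CPM, without overlap.

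RNY4 had the lowest counts of the 3. It stood at 4.39, 3.15 and 2.0 CPM in WT fraction 3 and at 2.91, 2.76 and 3.54 CPM in WT fraction 4, but WT fraction 7 summed to 1 count and WT fraction 8 to 2 counts over 3 libraries. Both groups are at or under the limit of 3 counts and are too low to read on their own. The ratio of the count rates, WT fractions 3 and 4 over 7 and 8, was 198 (95% exact interval 67.4 to 964, for counting error only). Under the D146N rescue it stood at 0.173 to 0.341 CPM in fractions 3 and 4, at 2.62, 2.66 and 2.60 CPM in fraction 7 and at 3.67, 2.76 and 3.17 CPM in fraction 8.

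Per length, RNY1 stood above RNY3 and RNY4 in every group. It held 133 ± 32.5 CPM per kb (SD, n = 3) in WT fraction 3, against 63.4 ± 12.2 for RNY3 and 33.1 for RNY4. In D146N fraction 7 the values were 135 ± 8.27, 34.3 and 27.4 CPM per kb. RNY3 stood above RNY4 in 7 of the 8 groups, among them WT fractions 7 and 8, where RNY4 is too low to read. In D146N fraction 8 RNY4 held 33.3 ± 4.75 CPM per kb and RNY3 25.9 ± 0.96. In WT fraction 7 the values were 1.60, 0.898 and 0.108 CPM per kb for RNY1, RNY3 and RNY4, on 17, 8.5 and 1 counts. The vault RNA VTRNA1-3 stood above all of these, at 1457 CPM per kb in WT fraction 3 and 646 in D146N fraction 7. The recovery of RNAs this short was not tested.

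**Figure D1:**
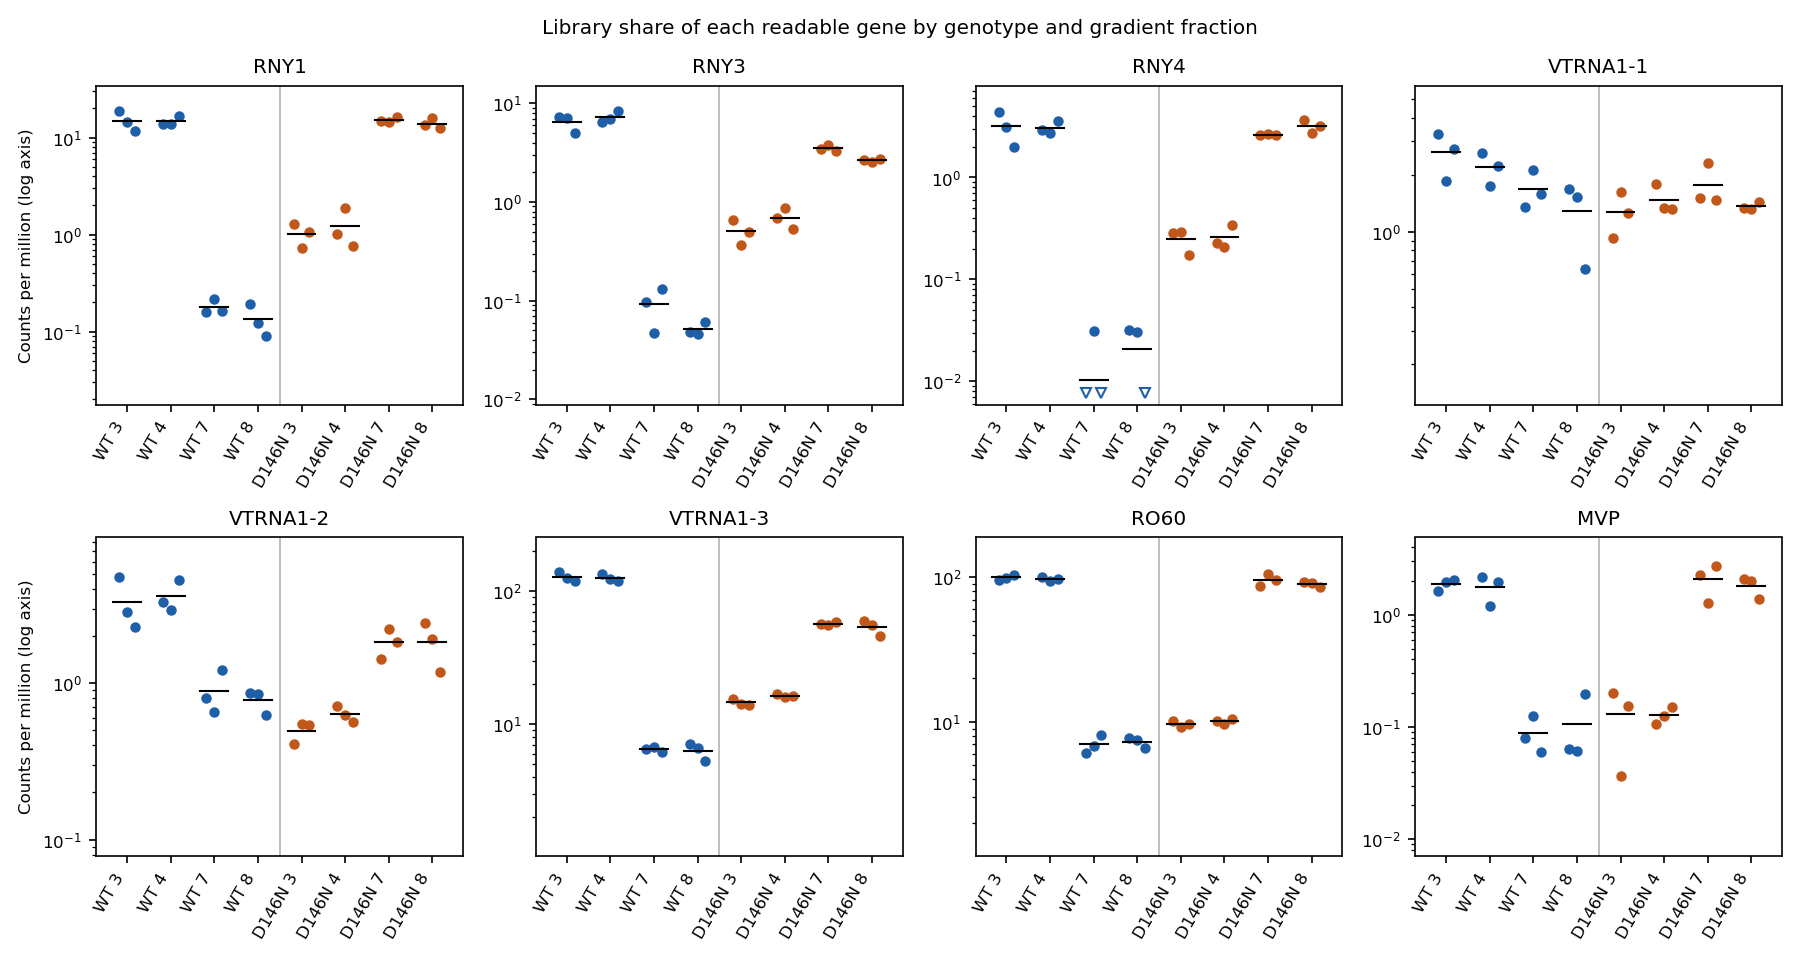
CPM of the 8 testable genes (log axis, a scale of its own for each gene) in WT fractions 3, 4, 7 and 8 (blue) and D146N fractions 3, 4, 7 and 8 (orange). Points are the 3 libraries of a group, lines their means and open triangles libraries with 0 counts; RNY1 lies between 11.7 and 18.9 CPM in WT fractions 3 and 4 and in D146N fractions 7 and 8, while VTRNA1-1 stays between 0.637 and 3.26 CPM in all 24 libraries.

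VTRNA1-3 was the most abundant vault RNA. It stood at 140, 125 and 119 CPM in WT fraction 3 and at 134, 122 and 119 CPM in WT fraction 4. In WT fractions 7 and 8 it stood at 6.54, 6.78 and 6.24 CPM and at 7.08, 6.67 and 5.30 CPM. The 2 sides were far apart, by 19.7 times in mean CPM. Under the D146N rescue it stood at 15.5, 14.3 and 14 CPM in fraction 3, at 17.0, 16.0 and 16.2 CPM in fraction 4, at 56.2, 55.2 and 59.1 CPM in fraction 7 and at 59.8, 56.0 and 45.6 CPM in fraction 8. Here fractions 7 and 8 were the high side, by 3.57 times, and all 6 of their libraries lay below all 6 of WT fractions 3 and 4.

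VTRNA1-1 differed from the other testable genes in that its CPM overlapped between the sides in both genotypes. It stood at 3.26, 1.86 and 2.74 CPM in WT fraction 3, at 2.61, 1.75 and 2.23 CPM in fraction 4, at 1.35, 2.13 and 1.58 CPM in fraction 7 and at 1.69, 1.53 and 0.637 CPM in fraction 8. Under the D146N rescue it stood at 0.933, 1.63 and 1.25 CPM in fraction 3, at 1.79, 1.33 and 1.32 CPM in fraction 4, at 1.52, 2.31 and 1.48 CPM in fraction 7 and at 1.34, 1.31 and 1.44 CPM in fraction 8. The lowest of all 24 values was in WT fraction 8 replicate 3, the library that stood apart. VTRNA1-2 lay between VTRNA1-1 and VTRNA1-3 in the fold between the sides, 4.13 in WT and 3.23 in D146N. It stood at 2.3 to 4.75 CPM in WT fractions 3 and 4 and 0.627 to 1.22 CPM in 7 and 8, and at 0.406 to 0.711 CPM in D146N fractions 3 and 4 and 1.18 to 2.41 CPM in 7 and 8.

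RO60 mRNA encodes the Y RNA binding ring. It stood at 96.6, 99.1 and 104 CPM in WT fraction 3, at 101, 94.0 and 97.7 CPM in fraction 4, at 6.10, 6.79 and 8.08 CPM in fraction 7 and at 7.79, 7.46 and 6.65 CPM in fraction 8. Under the D146N rescue it stood at 10.1, 9.17 and 9.63 CPM in fraction 3, at 10.2, 9.73 and 10.4 CPM in fraction 4, at 87.5, 105 and 96.5 CPM in fraction 7 and at 92.9, 92.1 and 86.3 CPM in fraction 8. The high sides of the genotypes overlapped. MVP mRNA, for the vault shell, was low: 1.21 to 2.18 CPM in WT fractions 3 and 4 and 1.27 to 2.71 CPM in D146N fractions 7 and 8. It stood at 0.0603 to 0.197 CPM in WT fractions 7 and 8 and 0.0365 to 0.203 CPM in D146N fractions 3 and 4, which are 1 to 6.5 counts a library. These are mRNA levels, and protein was not measured. CPM of the 2 sides did not overlap for 7 of the 8 genes in each genotype. Over all tested genes, 78.8% did not overlap in WT and 84.0% in D146N, so 7 of 8 is near the share of all genes.

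With TMM factors, all 8 genes passed edgeR's quasi-likelihood test (adjusted p under 0.05 over 18916 genes) for fractions 7 and 8 against 3 and 4 in WT, where 73.9% of all genes passed, 34.7% as higher and 39.2% as lower. Of the 8, the Y RNAs fell most: RNY1 by 3.90 (log2, SE 0.24, adjusted p 1.8e-16), RNY3 by 3.78 (SE 0.26, adjusted p 4.1e-15), while RNY4 was lowest, at -4.92 (SE 0.47, adjusted p 2.0e-11). The RNY4 value rests on 3 counts on its low side and depends on the fit's prior count. Of all tested genes, 0.656% had a lower value than RNY1, 0.767% than RNY3 and 0.217% than RNY4. The low sides of RNY1, RNY3 and RNY4 held 30, 13.5 and 3 counts over 6 libraries. A gene passes the filter on low counts through groups where it is high, so these ranks are a description and no separate support. VTRNA1-3 fell by 1.60 (SE 0.10), MVP by 1.47 (SE 0.35) and RO60 by 1.10 (SE 0.08). VTRNA1-1 rose by 1.997 (SE 0.22, adjusted p 8.0e-10) and VTRNA1-2 by 0.64 (SE 0.22, adjusted p 0.0114). On library totals 8 of 8 passed as lower and none as higher, against 6 lower and 2 higher with TMM, and 91.3% of all genes passed, 83.6% as lower and 7.65% as higher, so that count is near the share of all genes: VTRNA1-1 was at -0.70 and VTRNA1-2 at -2.04. The VTRNA1-2 call was also lost with no filter on low counts (adjusted p 0.0654) and without any 1 of 5 libraries (WT fraction 3 replicates 2 and 3, WT fraction 4 replicates 1 and 2, WT fraction 7 replicate 3), at adjusted p 0.0650 to 0.0915.

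In D146N, 7 of 8 genes passed, where 60.3% of all genes did (29.9% as higher and 30.4% as lower), 3 as higher and 4 as lower in fractions 7 and 8. RNY1 rose by 0.78 (log2, SE 0.17, adjusted p 0.000167), MVP by 0.998 (SE 0.36, adjusted p 0.0157) and RO60 by 0.32 (SE 0.08), with up to 0.50 without D146N fraction 7 replicate 1 or fraction 8 replicate 3. RNY4 was at 0.58 (SE 0.28, adjusted p 0.0699) and did not pass. RNY3 fell by 0.56 (SE 0.19, adjusted p 0.0125), although its CPM was 5.12 times higher in fractions 7 and 8. The vault RNAs fell together: VTRNA1-1 by 2.75 (SE 0.24, adjusted p 4.8e-12), VTRNA1-2 by 1.22 (SE 0.26) and VTRNA1-3 by 1.08 (SE 0.10). On library totals 7 of 8 passed as higher and none as lower, near the 88.8% and 4.08% of all genes, with RNY3 at 2.35, VTRNA1-2 at 1.69, VTRNA1-3 at 1.84 and VTRNA1-1 not passing at 0.17. RNY3 lost its call with no filter (adjusted p 0.137) and without any 1 of 8 libraries (D146N fraction 3 replicate 1, fraction 4 replicate 2 and each of fractions 7 and 8), at adjusted p 0.0632 to 0.0990. MVP lost its call without D146N fraction 3 replicate 2 (0.79, adjusted p 0.0606). RNY4 passed without any 1 of 7 libraries (D146N fraction 4 replicate 3 and each of fractions 7 and 8), at adjusted p 0.0181 to 0.0455.

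**Figure D2:**
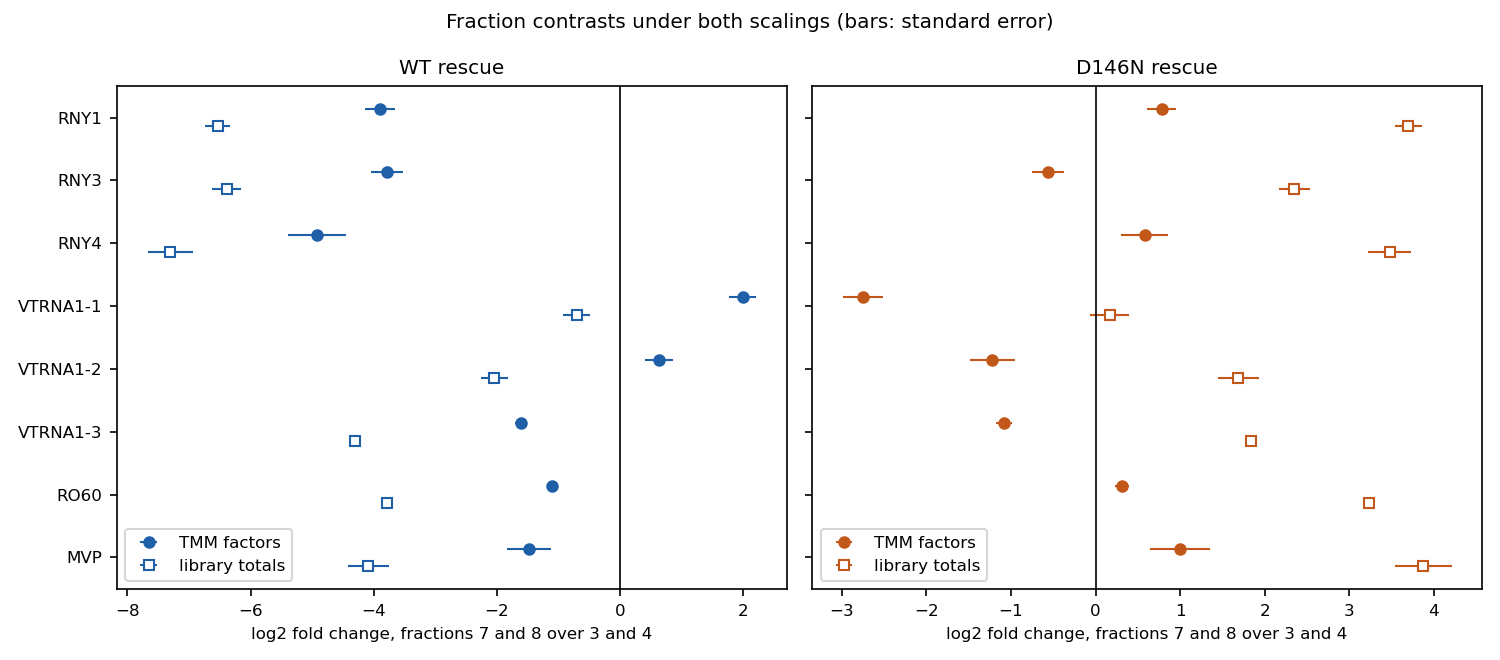
Log2 fold change of fractions 7 and 8 over 3 and 4 for the 8 genes, in WT (left) and D146N (right), with TMM factors (filled circles) and on library totals (open squares). Bars are standard errors of the fit, whose spread is estimated over all 24 libraries. A side holds 3 replicates of each of 2 fractions. The circles lie to the right of the squares in WT and to the left in D146N, and VTRNA1-1 and VTRNA1-2 change sign between them in both genotypes, in WT from 1.997 to -0.70 and from 0.64 to -2.04. RNY3 and VTRNA1-3 change sign in D146N.

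The difference of the fraction contrasts, D146N minus WT, compares how the genotypes distribute a gene over fractions of the same number. It and the tests of D146N against WT within a fraction take a number to mean the same place in both gradients, which the labels do not state. All 8 genes passed, 6 as higher and 2 as lower, where 77.1% of all genes did, 41.5% as higher and 35.6% as lower. The difference was 4.68 (log2, SE 0.30) for RNY1, 3.22 (SE 0.34) for RNY3 and 5.50 (SE 0.57) for RNY4. It was 1.42 (SE 0.11) for RO60, 2.47 (SE 0.50) for MVP and 0.52 (SE 0.14) for VTRNA1-3. It was -4.75 (SE 0.33) for VTRNA1-1 and -1.86 (SE 0.35) for VTRNA1-2, but 0.87 and 3.73 on library totals. The Y RNAs, both mRNAs and VTRNA1-3 were positive under both scalings. On library totals the median of all genes was 5.86, against 0.31 with TMM factors, and 88.1% of all genes passed as higher. For genes that were positive with TMM factors, the same sign on library totals is thus no separate support. All 8 passed without any single library. The VTRNA1-3 difference reached 0.85 without 1 library and moved by over 1.5 times without any 1 of 9 (each of D146N fraction 7, and replicates 2 and 3 of D146N fraction 8, WT fraction 3 and WT fraction 4).

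Ratios between members of a family need no scaling between libraries. VTRNA1-3 held 54.7 ± 11.5 counts (SD, n = 6 libraries, 3 of each fraction) for each count of VTRNA1-1 in WT fractions 3 and 4, from 43.0 to 69.8. It held 4.81 ± 1.81 in WT fractions 7 and 8, from 3.18 to 8.33. In D146N the ratio was 11.7 ± 2.77 in fractions 3 and 4, from 8.77 to 16.6, and 36.6 ± 7.73 in fractions 7 and 8, from 23.9 to 44.6. The ratio was lowest in WT fractions 7 and 8 and next lowest in D146N fractions 3 and 4, neither range overlapping another, while the ranges of WT fractions 3 and 4 and D146N fractions 7 and 8 overlapped. VTRNA1-1 accordingly made up 1.81% ± 0.36 of the vault RNA counts in WT fractions 3 and 4, 16.6% ± 4.06 in WT fractions 7 and 8, 7.88% ± 1.54 in D146N fractions 3 and 4 and 2.69% ± 0.66 in D146N fractions 7 and 8. VTRNA1-2 made up 2.59%, 9.58%, 3.24% and 3.09% in the same order. VTRNA1-3 held the rest, from 73.8% in WT fractions 7 and 8 to 95.6% in WT fractions 3 and 4.

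The shares of the Y RNAs overlapped between the sides of WT. RNY1 held 59.9% ± 1.79 of the Y RNA counts in fractions 3 and 4 of WT and 64.0% ± 6.82 in fractions 7 and 8, where a library had few counts. RNY3 held 27.7% ± 2.14 and 29.7% ± 12.4 there, and 30.3% ± 3.36 in D146N fractions 3 and 4. In D146N fractions 7 and 8 RNY3 held 14.9% ± 2.13, from 12.0% to 18%, below every library of WT fractions 3 and 4, whose lowest was 23.8%. The ratio of RNY1 to RNY3 counts was 4.84 ± 0.82 in D146N fractions 7 and 8, 2.18 ± 0.24 in WT fractions 3 and 4 and 1.86 ± 0.33 in D146N fractions 3 and 4. In WT fractions 7 and 8, on few counts, it was 2.625 ± 1.42, from 1.25 to 4.67. That range overlapped the 3.85 to 6.23 of D146N fractions 7 and 8. The RNY3 share of WT fractions 7 and 8, from 15.8% to 44.4%, overlapped that of D146N fractions 7 and 8 too.

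**Figure D3:**
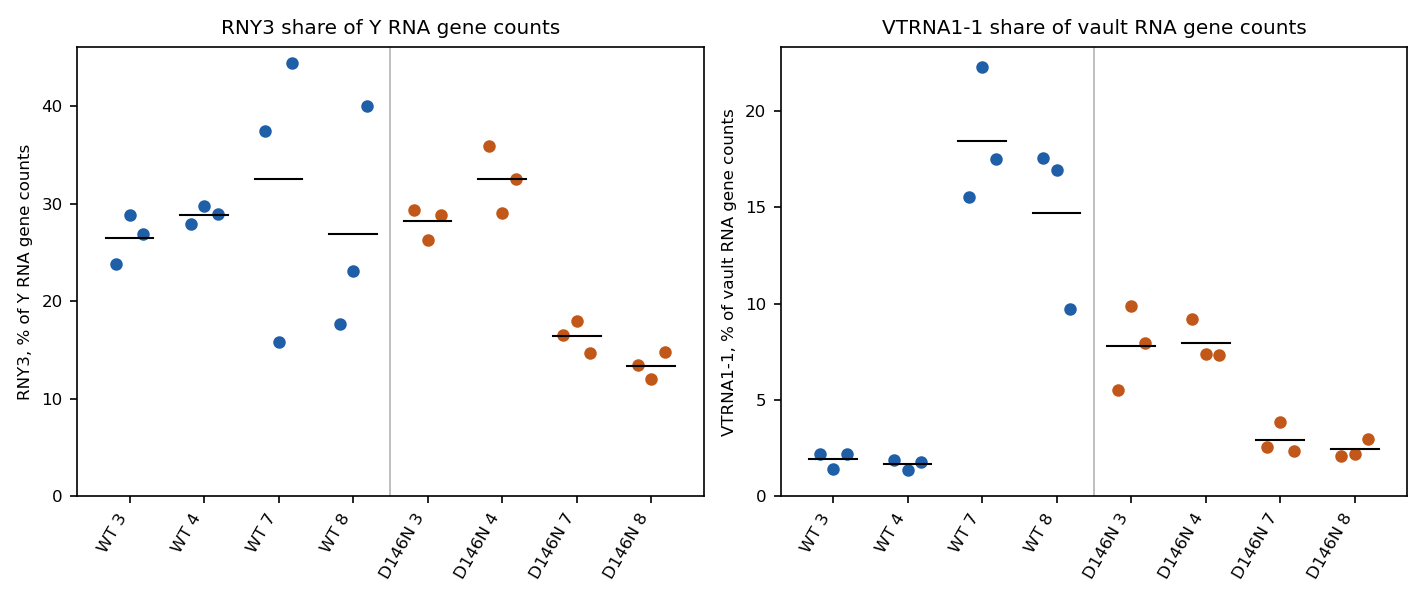
RNY3 as a percentage of the Y RNA gene counts (left) and VTRNA1-1 as a percentage of the vault RNA gene counts (right) in each library, by group, with lines at the mean of 3 libraries. RNY3 lies between 12.0% and 18% in D146N fractions 7 and 8, and VTRNA1-1 between 9.70% and 22.3% in WT fractions 7 and 8; the RNY3 values of WT fractions 7 and 8 rest on 1.5 to 4 counts a library.

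Within single fractions, D146N was compared with WT, 3 libraries against 3. In fraction 3, 5 of 8 genes passed (49.8% of all genes, 25.9% as higher and 23.9% as lower): RNY1 fell by 1.09, RNY3 by 0.92, RO60 by 0.60 and VTRNA1-3 by 0.36 (log2), and VTRNA1-1 rose by 1.75. VTRNA1-3 lost this call without D146N fraction 3 replicate 2 (adjusted p 0.0534) or replicate 3 (0.0761), while RNY4 passed without WT fraction 3 replicate 2 or 3 and MVP without D146N fraction 3 replicate 1 or WT fraction 3 replicate 1. In fraction 4, 4 of 8 passed (48.6% of all genes, 25.7% as higher and 22.8% as lower): RNY1 fell by 0.84, RNY3 by 0.59 and RO60 by 0.49, and VTRNA1-1 rose by 2.21. The count in fraction 4 was 2 without D146N fraction 4 replicate 3, where RNY1 (adjusted p 0.0591) and RNY3 (0.231) did not pass. The RNY3 call there (adjusted p 0.0472) was also lost with median-of-ratios factors, DESeq2, no filter and the replicate number as a block (0.0510), over a range of adjusted p from 0.0503 to 0.0570, and without D146N fraction 4 replicate 1 (0.101) or WT fraction 4 replicate 3 (0.0603). Without WT fraction 4 replicate 2, RNY4 and MVP passed as lower, and without D146N fraction 4 replicate 2 RNY1 was at -1.31. On library totals 8 of 8 passed as lower in fraction 3 and 7 of 8 in fraction 4, and none as higher, where 84.7% and 84.4% of all genes passed as lower.

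In fraction 7, 7 of 8 genes passed (63.6% of all genes, 32.4% as higher and 31.2% as lower), with RNY1 higher by 3.44, RNY3 by 2.23, RNY4 by 4.85, MVP by 1.49 and RO60 by 0.84 (log2) in D146N. VTRNA1-1 fell by 2.87 and VTRNA1-2 by 1.90, and VTRNA1-3 was at 0.18 (SE 0.14) and did not pass. VTRNA1-3 passed as higher with no filter (adjusted p 0.00270) and without D146N fraction 7 replicate 1 or 2, and MVP lost its call without WT fraction 7 replicate 3 (adjusted p 0.0557). The RNY4 value rests on the 1 count of WT fraction 7 replicate 2, and was 8.13 without that library, a fitted value that depends on the prior count because no count is then left in the group. In fraction 8, 8 of 8 passed (65.2% of all genes, 32.5% as higher and 32.8% as lower), with RNY1 higher by 3.99, RNY3 by 2.71, RNY4 by 4.49, MVP by 1.33, RO60 by 0.90 and VTRNA1-3 by 0.34, and VTRNA1-1 and VTRNA1-2 lower, at -2.66 and -1.49. Without WT fraction 8 replicate 3, VTRNA1-3 was at 0.11 (adjusted p 0.367) and did not pass, RNY4 was at 3.77 and MVP at 1.98. VTRNA1-3 also did not pass with DESeq2 (adjusted p 0.0772) or median-of-ratios factors (0.0854), and was at up to 0.59 without D146N fraction 8 replicate 3 or WT fraction 8 replicate 1. MVP lost its call without WT fraction 8 replicate 1 (0.0647) or 2 (0.0694). On library totals 7 of 8 passed as higher in each of fractions 7 and 8 and none as lower, where 83.6% and 80.9% of all genes passed as higher, with VTRNA1-1 not passing at 0.06 and 0.09.

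Neighbouring fractions gave no calls. None of the 8 genes, and 0 of all genes, passed edgeR for fraction 4 against 3 or fraction 8 against 7 in either genotype. With 0.0% of all genes called in each, no share of the 8 can be read against the background. At an unadjusted p under 0.05 there were 849 genes for fraction 4 against 3 and 1726 for 8 against 7 in WT, and 753 and 668 in D146N, with none of the 8 among them. DESeq2 called 22 genes for fraction 8 against 7 in WT and 0 in the other comparisons of neighbours, and edgeR with no filter called 5 and 142 in WT and 2 and 4 in D146N. The log2 values of the 8 genes ran from -0.85 to 0.67 in these comparisons. In WT fraction 8 against 7, leaving out WT fraction 8 replicate 3 moved RNY4 from 0.67 to 1.41, MVP from -0.015 to -0.65, RNY1 from -0.65 to -0.25, VTRNA1-1 from -0.55 to -0.11 and VTRNA1-2 from -0.37 to -0.085. RO60 turned from -0.12 to 0.093 and VTRNA1-3 from -0.22 to 0.041, and none of these values passed. The test does not show that these fractions hold the same RNA.

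Because the high sides carry different numbers in the genotypes, they were also compared with each other. These comparisons use the same libraries as the fraction contrasts and are not independent of them. D146N fractions 7 and 8 were compared with WT fractions 3 and 4, and 5 of 8 genes passed, all as lower, where 17.4% of all genes passed, 10.4% as lower and 6.94% as higher. RNY3 fell by 1.31 (log2, SE 0.15, adjusted p 3.3e-08), VTRNA1-3 by 1.34 (SE 0.09, adjusted p 9.4e-12), VTRNA1-2 by 1.06 (SE 0.21, adjusted p 0.000411) and VTRNA1-1 by 0.77 (SE 0.23, adjusted p 0.0150). Of all tested genes 1.05% had a lower value than RNY3 and 0.973% than VTRNA1-3. RO60 fell by 0.23 (SE 0.07, adjusted p 0.0298), a call that was lost on library totals (-0.08, adjusted p 0.359) and without any 1 of 9 libraries (D146N fraction 7 replicates 1 and 3, each of D146N fraction 8, WT fraction 3 replicates 2 and 3, WT fraction 4 replicates 1 and 3), at adjusted p 0.0522 to 0.108. RNY1 at -0.18 (SE 0.13), RNY4 at -0.25 (SE 0.20) and MVP at -0.06 (SE 0.24) did not pass. The VTRNA1-1 call was lost without WT fraction 3 replicate 1 (-0.65, adjusted p 0.0520). On library totals RNY3 was at -1.17, VTRNA1-3 at -1.20, VTRNA1-2 at -0.91 and VTRNA1-1 at -0.63, all passing.

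The low sides were compared in the same way. In D146N fractions 3 and 4 against WT fractions 7 and 8, 5 of 8 genes passed, all as higher, where 29.2% of all genes passed, 17.0% as higher and 12.1% as lower. RNY1 rose by 2.93 (log2, SE 0.29, adjusted p 9.7e-10), RNY3 by 3.03 (SE 0.31, adjusted p 2.2e-09) and RNY4 by 4.09 (SE 0.58, adjusted p 1.3e-06), and 99.4%, 99.5% and 99.8% of all tested genes had a lower value. In CPM, RNY1 was 7.10 times and RNY3 8.39 times higher in D146N, and the RNY4 count rate was 16.3 times higher (95% exact interval 5.18 to 82.2, on 40 against 3 counts). The RNY1 fold rests on 172.5 against 30 counts and the RNY3 fold on 93 against 13.5 counts, over 6 libraries a side. A gene passes the filter on low counts through groups where it is high, so the ranks of the Y RNAs among all genes are a description. VTRNA1-3 rose by 1.35 (SE 0.10) and RO60 by 0.56 (SE 0.09). VTRNA1-1 at -0.02 (SE 0.23), VTRNA1-2 at -0.48 (SE 0.27) and MVP at 0.41 (SE 0.47) did not pass. Without WT fraction 8 replicate 3, VTRNA1-1 was at -0.24 and MVP at 0.73, and MVP was at 0.19 without D146N fraction 3 replicate 1 and 0.64 without its replicate 2, none passing. These 5 calls were also made on library totals, with median-of-ratios factors, with DESeq2 and with no filter.

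**Figure D4:**
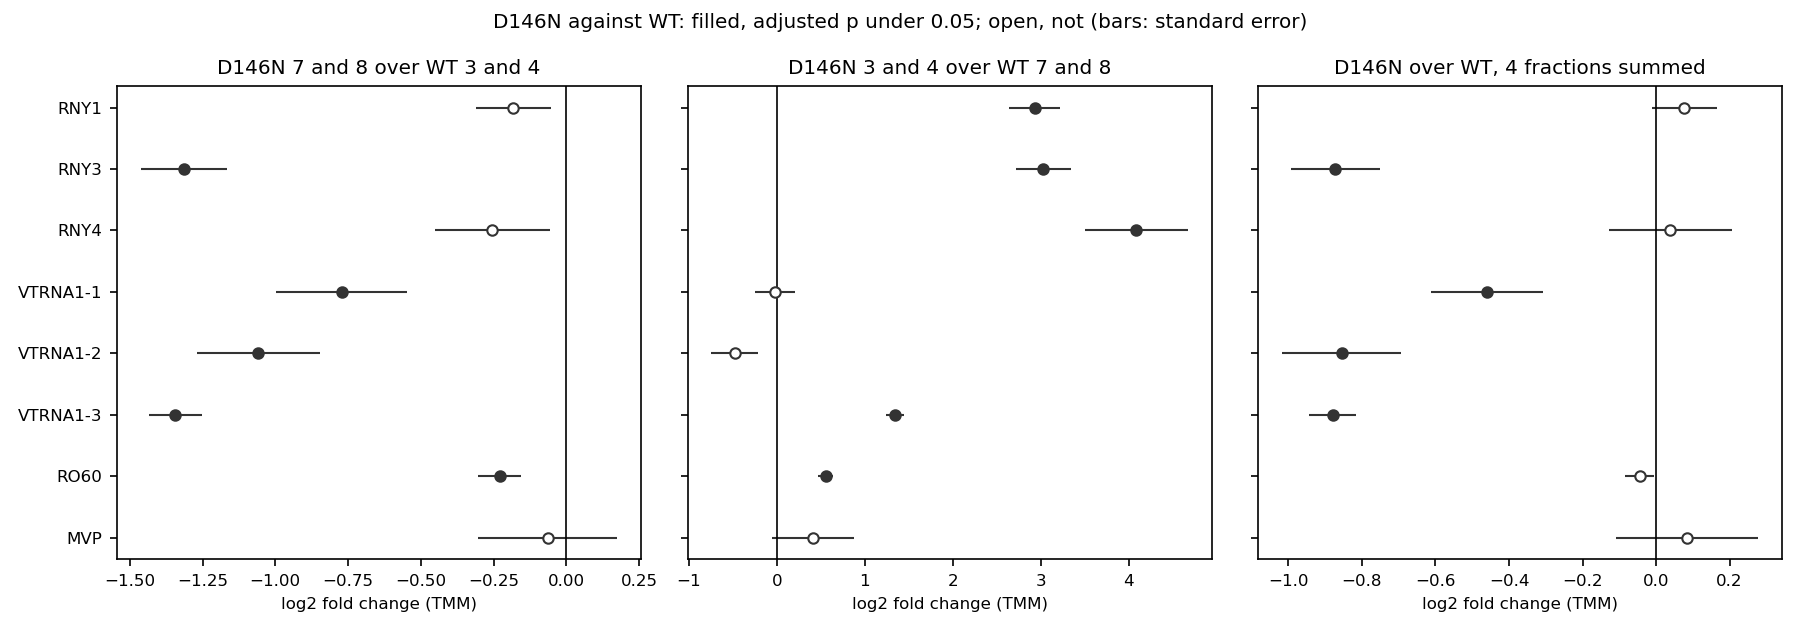
Log2 fold change (TMM) of D146N over WT for the 8 genes between the sides of high CPM (left), between the sides of low CPM (middle) and in the sums of the 4 fractions (right), each panel with its own axis; filled points passed at an adjusted p under 0.05, and bars are standard errors. RNY1, RNY3 and RNY4 lie between 2.93 and 4.09 in the middle panel, and RNY3 and VTRNA1-3 are low in both outer panels, at -1.31 and -1.34 and at -0.87 and -0.88.

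In sums of the 4 fractions of each replicate number, 3 sums against 3, D146N was compared with WT over 20626 genes. Of the 8 genes 4 passed, all as lower, where 27.3% of all genes passed, 12.4% as lower and 14.9% as higher. RNY3 fell by 0.87 (log2, SE 0.12, adjusted p 3.9e-05), VTRNA1-3 by 0.88 (SE 0.06, adjusted p 2.1e-06), VTRNA1-2 by 0.86 (SE 0.16, adjusted p 0.000733) and VTRNA1-1 by 0.46 (SE 0.15, adjusted p 0.0328). RNY1 at 0.08 (SE 0.09), RNY4 at 0.04 (SE 0.17), RO60 at -0.04 (SE 0.04) and MVP at 0.08 (SE 0.19) did not pass. The VTRNA1-1 call was lost with DESeq2 (adjusted p 0.0561) and on library totals (adjusted p 0.0837). It was also lost in the mean of the 4 within-fraction contrasts (-0.40, adjusted p 0.0748). Leaving out any 1 of 4 sums (D146N replicates 1 and 3, WT replicates 1 and 2) lost it too, at adjusted p 0.0617 to 0.154. Each fraction enters these sums by its depth. The log2 contrasts of the 4 single fractions were also averaged. This mean of log ratios is another quantity than a change of the summed amount. Groups of few counts weigh in it as much as others: WT fractions 7 and 8 held 8.5 and 5 counts of RNY3 and 1 and 2 of RNY4. In this mean RNY3 was at 0.86 (adjusted p 0.000598) and VTRNA1-3 at 0.00. RNY1 at 1.38, RNY4 at 1.92 and RO60 at 0.16 (adjusted p 0.0348) passed as higher. The sign of RNY3 thus differed between the sums and this mean.

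Most copies of Y RNA genes in the genome are pseudogenes, and reads can be shared between them and the genes. The table held 809 rows named as Y RNA copies, of which 269 had counts. They summed to 7036 counts over 24 libraries, against 6651 in RNY1, RNY3 and RNY4. Copies thus took 51.4% of both together, from 42.7% to 91.2% by group. The copies were 13 times higher in WT fractions 3 and 4 than in 7 and 8, against 102 times for the genes, and 4.43 times higher in D146N fractions 7 and 8 than in 3 and 4, against 10.4 times. How many reads of the genes were given to copies was not tested, so the levels of the Y RNAs are uncertain. Vault RNA copies held 18 counts in all.

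Other polymerase III RNAs give a comparison. RN7SL1 and RN7SL2 (signal recognition particle), RPPH1 (RNase P), RMRP (RNase MRP) and RN7SK all rose in WT fractions 7 and 8, 5 of 5. Of all genes 34.7% rose there, and the median of the 5 was 3.81 (log2) against -0.17 for all genes. All 5 fell in D146N, where 30.4% of all genes did, with a median of -4.55 against 0.09. On library totals RN7SL1 and RN7SL2 turned (-0.37 and -0.51 in WT), and RPPH1, RMRP and RN7SK kept their sign (4.50, 2.20 and 1.10 in WT). With TMM factors VTRNA1-1 (1.997 and -2.75) and VTRNA1-2 (0.64 and -1.22) had the signs of this list, but on library totals they were at -0.70 and 0.17 and at -2.04 and 1.69. RPPH1, RMRP and RN7SK were higher in WT fractions 7 and 8 under both scalings. RNY1, RNY3 and RNY4 were lower under both, but 83.6% of all genes passed as lower on library totals, so that scaling adds no separate support. In D146N with TMM factors RNY3 fell by 0.56, the sign of this list, a call lost with no filter. RNY1 rose there by 0.78, and RNY4 at 0.58 did not pass.

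Of 15 listed genes for Y RNA binding proteins, MATR3 has 2 rows, so 16 rows were tested. In WT 15 rows fell in fractions 7 and 8 and 1 rose, where 39.2% of all genes fell and 34.7% rose, with a median of -0.97 against -0.17 for all genes. SSB, for La, was at -1.05 (SE 0.09), near RO60. NCL (nucleolin) was at -1.51, YBX1 at -1.30 and IGF2BP1 at -1.08. FIP1L1, of the polyadenylation complex, was the row that rose, by 2.54 (SE 0.08). In D146N 12 rows rose, 1 fell and 3 did not pass, where 29.9% of all genes rose and 30.4% fell, with a median of 0.49 against 0.09. SSB rose by 0.68, NCL by 0.93 and PUF60 by 1.04, and FIP1L1 fell by 2.05. On library totals 15 of 16 rows were lower in WT and 16 of 16 higher in D146N, where 83.6% and 88.8% of all genes were. In the sums 8 rows were higher and 5 lower in D146N, where 14.9% and 12.4% of all genes were, among them YBX3, which fell by 0.42, and PTBP1, which rose by 0.31.

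Of 9 genes for vault particle and vault RNA factors, 7 fell and 1 rose in WT fractions 7 and 8, where 39.2% of all genes fell and 34.7% rose, with a median of -0.65 against -0.17 for all genes. PARP4, of the vault particle, fell by 1.13 (SE 0.10), DICER1 by 0.84, AGO2 by 0.69 and NSUN2, which methylates vault RNAs, by 0.65. In D146N 5 rose and 4 did not pass, where 29.9% of all genes rose, with a median of 0.30 against 0.09, PARP4 rising by 0.42 and AGO2 by 0.59. In the sums AGO2 rose by 0.23 and TEP1 and PARP4 fell by 0.29 and 0.21. On library totals all 9 were lower in WT and all 9 higher in D146N, where 83.6% and 88.8% of all genes were.

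For the 4 lists that follow, the shares of all genes were again 34.7% higher and 39.2% lower in WT and 29.9% and 30.4% in D146N, and the shares called in either direction were 73.9% and 60.3%. Of 7 genes for trimming and tailing the 3′ ends of small RNAs, 4 fell and 2 rose in WT fractions 7 and 8. PARN, a deadenylase, rose by 2.18 (SE 0.12), while DIS3L, the cytoplasmic relative of DIS3, fell by 1.01, USB1 by 1.21 and EXOSC10 by 0.63. In D146N 4 rose, 1 fell and 2 did not pass, with PARN falling by 1.53 and USB1 rising by 1.11. Of 13 polymerase III subunit genes, 6 rose and 6 fell in WT, with POLR1D at 2.06 and POLR3K at 2.61 among the higher and POLR3D at -1.21 among the lower, and in D146N 5 rose and 3 fell. Of 8 genes for factors of the Y RNA promoter type, 5 fell and 1 rose in WT, SNAPC5 by 2.08, and in D146N 3 rose and 2 fell. Of 9 genes for factors of the vault RNA promoter type and the repressor MAF1, 4 fell and 3 rose, with GTF3C1 at -1.63 and MAF1 at -1.35, and in D146N 5 rose and 2 fell. On library totals no gene of these 4 lists passed as higher in WT, where 7.65% of all genes did.

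Genes whose 8 group means of log2 CPM (TMM) correlated best with each of the 8 genes were sought among 5438 genes of at least 10 CPM. The groups share libraries, depth and scaling, so r is a description. ANAPC2, of the anaphase promoting complex, was closest to RNY1 (r = 0.996) and to RNY4 (r = 0.991), and RNU6-7, a U6 small nuclear RNA gene, to RNY3 (r = 0.979). RN7SL4P was closest to VTRNA1-1 (r = 0.988), CDC42BPA to VTRNA1-2 (r = 0.990) and CEP135 to VTRNA1-3 (r = 0.975). CCNT1 was closest to RO60 (r = 0.999) and ILVBL to MVP (r = 0.997). The next genes were ZNF264 and FZD6 for RNY1, BUB1 and PPP1CC for RNY3, MRPS10 and TERF2IP for RNY4, SMAD2 and SCARNA12 for VTRNA1-1, SMARCC1 and THADA for VTRNA1-2, CALM3 and PLPBP for VTRNA1-3, HEATR1 and PHF20L1 for RO60 and LAS1L and DNAJA1 for MVP, all with r from 0.946 to 0.998.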

How the data were processed

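The authors deposited 1 table of expected counts per versioned Ensembl gene for 24 libraries, not normalized; 73.3% of the nonzero values were whole within 0.005. The submitters' processing notes name hg38, featureCounts 1.5.1, HISAT2 2.1.0, Bowtie2 2.3.5 and SAMtools; their roles, options and strand setting are not given in the sources used here. All columns matched a sample. The tests had been planned for whole counts, so values were rounded to whole numbers.

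Fold changes came from edgeR 4.0.16 (R 4.3.3): filterByExpr by group, TMM factors and quasi-likelihood models (robust option) with 1 mean for each of the 8 groups, with Benjamini-Hochberg adjustment over all 18916 genes tested. A gene passed at an adjusted p under 0.05. The biological coefficient of variation was 13.7%, and 8.53% in the sums. CPM and ratios used the values as deposited. The fits were also run on simulated counts in which both genotypes shared the fraction profile of WT and all genes the same spread. The real genotypes had opposite profiles, so that run does not show how the fits behave on these data. Alternatives were library totals, median-of-ratios factors, DESeq2 1.42.0, no filter, counts rounded down, the mean of the 4 within-fraction contrasts for the sums, leaving out each library, and the replicate number as a block. No 2 libraries were identical. Every member was named, with up to 4 genes of smallest p of each list per contrast (SSB was added for its role after its values were seen) and the 3 genes most like each member. Members, lists and contrasts were chosen with earlier results of these data known.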

Additional observations from a re-analysis of the deposited data

Results flagged for a closer look

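The fraction contrast (fractions 7 and 8 over 3 and 4) differed between D146N and WT for all 8 tested genes by the interaction term of the edgeR fit. The difference, D146N minus WT on the log2 scale, was 4.68 for RNY1, 3.22 for RNY3, 5.50 for RNY4, -4.75 for VTRNA1-1, -1.86 for VTRNA1-2, 0.52 for VTRNA1-3, 1.42 for RO60 and 2.47 for MVP. Of all genes, 77.1% passed this test.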

How the results depend on the processing

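Of 80 results on single genes, 77 kept their direction and their side of the threshold with DESeq2, 78 with median-of-ratios factors, 73 with no filter and 53 on library totals; 72 of 72 did with counts rounded down, an alternative chosen after seeing the data. Of 8 results in the sums, 2 did in the mean of the 4 within-fraction contrasts, while 3 turned, 2 gained a call and 1 lost it. On library totals 8 genes passed in fraction 3 instead of 5, where 88.7% of all genes passed instead of 49.8%. In fraction 4, 7 passed instead of 4, where 88.1% of all genes did instead of 48.6%. Directions that turned on library totals were, for fractions 7 and 8 against 3 and 4, VTRNA1-1 (-0.70) and VTRNA1-2 (-2.04) in WT and RNY3 (2.35), VTRNA1-1 (0.17), VTRNA1-2 (1.69) and VTRNA1-3 (1.84) in D146N, and in the difference VTRNA1-1 (0.87) and VTRNA1-2 (3.73). For D146N against WT, VTRNA1-1 and VTRNA1-2 turned to -1.02 and -2.71 in fraction 3, -0.56 and -2.49 in fraction 4, 0.060 and 1.03 in fraction 7 and 0.093 and 1.23 in fraction 8. MVP turned to 0.082 between D146N fractions 7 and 8 and WT fractions 3 and 4, and RO60 to 0.053 in the sums. With no filter VTRNA1-2 turned in fraction 3 (-0.080) and VTRNA1-1 between D146N fractions 3 and 4 and WT fractions 7 and 8 (0.030). In the mean of the 4 within-fraction contrasts RNY3 (0.86), VTRNA1-3 (0.000903) and RO60 (0.16) had the other sign than in the sums. Which scaling tracks the amount of RNA, and the cause of these changes, was not tested. Without the 10 largest rows in the total, the summed Y RNAs stood at 46.4, 47.1, 1.01 and 0.690 CPM in WT fractions 3, 4, 7 and 8 and 7.60, 9.47, 36.7 and 34.5 CPM in D146N, against 24.6, 25.2, 0.283, 0.207, 1.78, 2.17, 21.3 and 19.8 CPM of all counts. The vault RNAs stood at 252, 245, 32.5, 28.0, 69.8, 80.2, 104 and 99.5 CPM in the same order, against 134, 131, 9.10, 8.41, 16.3, 18.5, 60.4 and 57.0 CPM.

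Leaving out 1 library at a time, 747 of 816 values kept their direction and side, 38 lost a call, 15 gained one and 16 turned. The number of the 8 genes that passed ran from 7 to 8 for the fraction contrast in WT, 6 to 8 in D146N, 8 to 8 for the difference, 4 to 6 in fraction 3, 2 to 6 in fraction 4, 6 to 8 in fraction 7, 7 to 8 in fraction 8, 4 to 5 between the high sides, 5 to 5 between the low sides, 3 to 4 in the sums and 0 to 0 between neighbours. Values that turned had been near 0: VTRNA1-2 in fraction 3 ran from -0.28 to 0.28, MVP between the high sides from -0.16 to 0.089, VTRNA1-1 between the low sides from -0.24 to 0.14, and in the sums RNY1 from -1.6e-05 to 0.18 and RNY4 from -0.10 to 0.19. With the replicate block 79 of 80 results kept their call, and RNY3 in fraction 4 did not (-0.60, adjusted p 0.0510), leaving 3 genes instead of 4. Libraries of the same replicate number did not deviate together from their group means. Of the same-number correlations, 0 of 36 within a genotype (-0.07 to 0.02) and 0 of 48 between genotypes (-0.08 to 0.08) were over 0.1. Of 24 libraries, 6 correlated best with their own number among the 3. Low correlations do not show that libraries of 1 number come from separate gradients. Depth limits VTRNA2-1, at 0 counts in all libraries, and RNY4 in WT fractions 7 and 8, at 3 counts in all. Counts were also few for RNY3 in WT fractions 7 and 8, which summed to 8.5 and 5. MVP summed to 8.33 and 10.5 counts in WT fractions 7 and 8 and to 10 in each of D146N fractions 3 and 4.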
